A study of Mus musculus with 6 samples.

Results

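The genes described here are 10 genes of fatty acid synthesis and desaturation, chosen by name from the 15973 protein-coding genes compared by the authors: Acly, Acaca, Fasn, Scd1, Scd2, Elovl6, Fads1, Fads2, Acsl3 and Srebf1. All 10 passed the filter on low counts, which left 12572 genes tested. RNA-Seq was performed on 4T1-T cells, a sub-clone of the mouse mammary carcinoma line 4T1 that is able to perform vasculogenic mimicry (VM), in which tumor cells form vessel-like channels. All libraries came from this 1 sub-clone, grown in culture and serum starved overnight in Opti-MEM with 0.3% BSA. The cells then received acetylated low-density lipoprotein (acLDL) carrying a green fluorophore at 10 ug/mL for 4 h, followed by 1 h in complete medium. The brightest 25% of cells were sorted as acLDL-high and the dimmest 25% as acLDL-low, on 3 separate occasions, which gave 3 libraries per population and 3 pairs. Both populations had thus been given the same medium and lipoprotein, and the comparison asks whether cells that took up more of it differed in the mRNA levels of the lipogenic genes.

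Fatty acids are built in the cytosol from acetyl-CoA. ATP citrate lyase (Acly) makes acetyl-CoA from citrate, acetyl-CoA carboxylase (Acaca) converts it to malonyl-CoA, and fatty acid synthase (Fasn) assembles palmitate, which Elovl6 lengthens and the stearoyl-CoA desaturases (Scd1 and Scd2) make monounsaturated. Fads1 and Fads2 introduce double bonds into polyunsaturated fatty acids, Acsl3 activates fatty acids as acyl-CoA at the endoplasmic reticulum and lipid droplets, and Srebf1 encodes SREBP1, a transcription factor held in the membrane that activates most of these genes once it has been cleaved, in response to insulin signaling, liver X receptor (LXR) activity and the cell's lipid content.

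None of the 10 genes passed the test for a difference between acLDL-high and acLDL-low cells. By the quasi-likelihood test of edgeR, blocked on replicate number and with Benjamini-Hochberg adjustment, 0 of 10 had an adjusted p under 0.05, 0 of 10 had an unadjusted p under 0.05, and DESeq2 with the same block also called 0 of 10. Among all genes tested 4.75% were called, 3.43% higher and 1.32% lower in acLDL-high cells. The 95% intervals of the log2 fold change all included 0, and between them they reached from -0.20 for Fasn to 0.17 for Fads2, so that a decrease of more than 13.2% or an increase of more than 12.5% lay outside the interval of every one of the 10 genes. The variances behind these intervals were moderated by edgeR towards those of all genes tested (median total degrees of freedom 12.7). The intervals therefore do not rest on the 3 pairs of each gene alone. For 9 of the 10 genes, all but Srebf1, the range between the 3 occasions was larger than any difference within a pair.

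The mRNAs of the desaturases Scd1 and Scd2 were read as separate genes although they share sequence. They lie 87.59 kb apart on chromosome 19, and the longest stretch that is identical in their longest annotated coding sequences has 147 bases. It is printed because a read pair placed wholly inside it cannot be assigned to either gene. It starts at base 523 of the 1065 coding bases of Scd1 and at base 532 of the 1074 of Scd2, and spans an exon junction in both, in chr19:44401693-44401805 and chr19:44400341-44400374 (GRCm38, minus strand) for Scd1 and in chr19:44299702-44299814 and chr19:44301212-44301245 (plus strand) for Scd2.
Scd1 and Scd2: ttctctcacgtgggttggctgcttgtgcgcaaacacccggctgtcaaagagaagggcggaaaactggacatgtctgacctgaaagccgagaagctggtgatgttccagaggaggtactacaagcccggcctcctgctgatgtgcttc
Outside such stretches the genes differ. Of the 50-base words in their annotated transcripts (50 being the read length), 145 are shared between Scd1, which has 4888, and Scd2, which has 5461. Fads1 and Fads2, 81.14 kb apart on the same chromosome, share none, and their longest identical coding stretch has 17 bases.

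The sequences before the start sites differ in the short motifs they hold. RefSeq (GRCm38.p6) start sites were at hand for 7 of the 10 genes, 9 in all because Srebf1 has 3, and not for Scd1, Scd2 and Fads1. Not all of these stretches lie outside the annotated genes: 243 of the 250 bases before the Fads2 start and 31 of those before the Elovl6 start are annotated as exon, and the Acaca start lies inside the gene as GENCODE M21 draws it. The Srebf1 count adds up the transcripts from all of its start sites, so the SREBP1 isoforms cannot be told apart in these data. CCAAT, the letters bound by the factor NF-Y that acts together with SREBP, was found on either strand in the 250 bases before 4 of the 9 starts, against 33.8% of 32851 promoters. GGGCGG, the core of the GC box bound by Sp1, was found before 5 of 9, Fads2 included, against 32.7%. Srebf1 enters both counts with more than a single start, so they are counts of starts and not of genes. A sterol regulatory element written as TCACNCCAC was found before 0 of 9, against 1.05% of all promoters, and the E-box CACGTG before 0 of 9, against 6.02%. With shares this low, 0 of 9 says little. Only exact matches in the 250 bases were counted, so variant sites and sites elsewhere would be missed. The 100 bases before the start are shown for the 3 genes in which CCAAT or its complement ATTGG, in capitals, lies within them: Fasn (chr11:120824548-120824647, minus strand), the innermost Srebf1 start (chr11:60210472-60210571, minus strand) and Acsl3 (chr1:78657725-78657824, plus strand). In Fasn a match on one strand overlaps a match on the other.
Fasn: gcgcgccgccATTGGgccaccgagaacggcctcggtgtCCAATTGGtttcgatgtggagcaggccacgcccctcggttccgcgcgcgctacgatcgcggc
Srebf1: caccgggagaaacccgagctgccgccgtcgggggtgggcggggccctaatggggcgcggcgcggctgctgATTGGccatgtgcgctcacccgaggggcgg
Acsl3: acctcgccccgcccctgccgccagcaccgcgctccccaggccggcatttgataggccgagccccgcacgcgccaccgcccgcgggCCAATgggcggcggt

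In GENCODE M21 (GRCm38) the 4 genes Acly (chr11:100476353-100528000, minus strand), Acaca (chr11:84129672-84401651, plus), Fasn (chr11:120805846-120824547, minus) and Srebf1 (chr11:60199089-60222581, minus) lie on chromosome 11. Chromosome 19 holds Scd1 (chr19:44394455-44407879, minus), Scd2 (chr19:44293674-44306864, plus), Fads1 (chr19:10182888-10196877, plus) and Fads2 (chr19:10062765-10101746, minus). Elovl6 is at chr3:129532355-129638495 and Acsl3 at chr1:78657825-78707743, both on the plus strand. All are protein-coding genes. Counts of all but Acly, Fasn and Fads1 carry some uncertainty from sequence that overlaps or repeats elsewhere. Of the 50-base words of Acaca 30.4% also occur in other genes, mostly in Gm5182, which itself had 1.71 to 2.70 CPM (counts relative to the TMM-scaled library size). Exons of Utp14b cover 5.60% of the exonic bases of Acsl3, and those of Rai1 and Mir6922 cover 3.11% of Srebf1. An exon of Mir5114 covers 1.12% of Scd2, and between 3.97% and 4.56% of the words of Scd1, Scd2 and Elovl6 recur in other genes, as do 0.15% of those of Fads2, in Fads3. How reads with several matches and the strand were handled in counting is not given in the sources used here.

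The libraries held 70263372 to 94216786 counts, of which the 10 genes took 0.567% to 0.644%. At this depth 3 counts correspond to 0.032 to 0.043 CPM, and the lowest count of any of the 10 genes in a library was 7236, for Acaca, so that counting error was small. All 9 epithelial markers of 4T1 cells examined, among them Krt8, Krt18, Epcam and Cdh1, were detected, with a summed level of 3339 to 5960 CPM. Libraries of the same occasion resembled each other (correlation of their deviations from the group means 0.795, 0.846 and 0.799), so each acLDL-high library was compared with the acLDL-low library of its own number. Since RNA was taken from whole populations, fewer cells with a transcript and less of it per cell cannot be told apart. The edgeR tests weigh each difference against the spread of within-pair differences over these 3 occasions, moderated towards that of all genes.

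Per length of annotated exon, Scd2 was the highest of the 10 genes in every library. Its level was 453 to 589 CPM per kb, with a mean of 523 that ranked 38 among the 12572 genes. Acly (106 to 151 CPM per kb) and Fasn (108 to 147) followed with overlapping ranges, and both lay above Fads2 (48.4 to 74.4), whose range did not touch that of Fasn above it or Acsl3 below it. Acsl3, Elovl6, Scd1, Fads1 and Srebf1 had means of 38.4, 34.7, 33.8, 30.3 and 29.6 CPM per kb, and each of these ranges overlapped that of its neighbour in the order. Acaca, the enzyme that commits carbon to fatty acid synthesis, was the lowest at 5.60 to 8.06 CPM per kb, close to the median gene at 6.41 CPM per kb. The exon length used is that of all annotated transcripts together, so a gene of which only short isoforms are transcribed is underestimated on this scale.

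**Figure D1:**
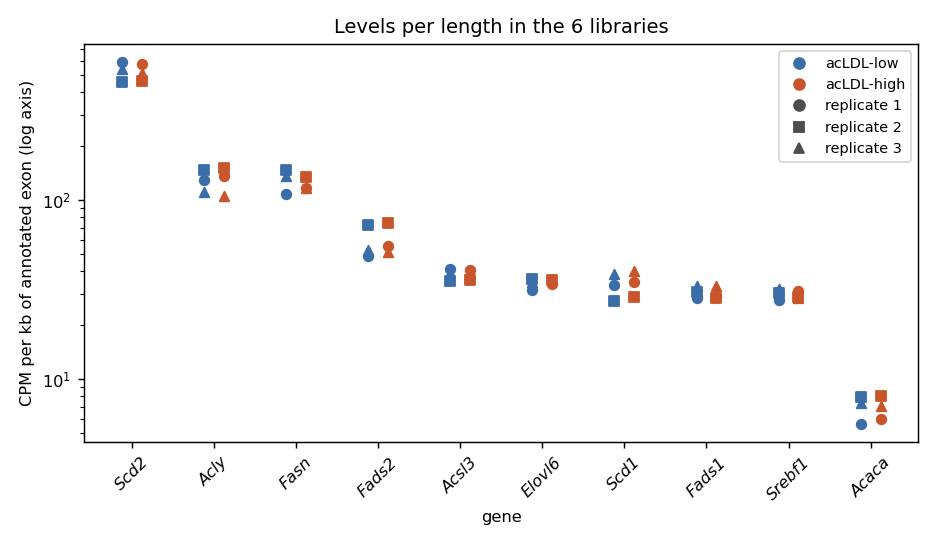
Level of each gene in CPM per kb of annotated exon (log axis) in the 3 acLDL-low (blue) and 3 acLDL-high (orange) libraries, with the marker shape giving the replicate. Scd2 lies at 453 to 589 in all libraries and Acaca at 5.60 to 8.06, and the acLDL-low and acLDL-high libraries of each gene overlap.

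Acly, the source of cytosolic acetyl-CoA, measured 685, 772 and 584 CPM in the acLDL-low libraries of replicates 1, 2 and 3 and 716, 799 and 559 CPM in their acLDL-high partners. The populations overlapped, and the order of the replicates was the same in both. The means were 680.2 ± 94.3 CPM in acLDL-low and 691 ± 122 CPM in acLDL-high cells (SD, n = 3). The log2 fold change was 0.02 ± 0.045 (SE, 95% interval -0.08 to 0.11, edgeR adjusted p = 0.891).

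Acaca had 95.6, 136 and 125 CPM in acLDL-low and 101, 138 and 120.1 CPM in acLDL-high cells. Replicate 1 was the lowest in both populations, and the difference within pairs was small and changed sign. The log2 fold change was 0.02 ± 0.043 (SE, 95% interval -0.08 to 0.11, edgeR adjusted p = 0.890).

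Fasn, which carries all the catalytic steps of palmitate synthesis in 1 protein, stood at 1179, 1609 and 1495 CPM in the acLDL-low and at 1284, 1470.0 and 1284 CPM in the acLDL-high libraries. In replicate 1 the acLDL-high library was above its partner, by 0.12 on the log2 scale, while in replicates 2 and 3 it was below, with differences of -0.13 and -0.22. The means were 1428 ± 223 and 1346 ± 107 CPM (SD, n = 3), and the log2 fold change of -0.08 ± 0.060 was the most negative of the 10 (SE, 95% interval -0.20 to 0.05, edgeR adjusted p = 0.532). Without replicate 1 it was -0.17, with an edgeR adjusted p of 0.127, and without replicate 3 it was -0.0023.

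Srebf1 showed the same division between the pairs. It had 156, 170.4 and 178 CPM in acLDL-low and 173, 162 and 159 CPM in acLDL-high cells, with pair differences of 0.15, -0.07 and -0.16. Its log2 fold change was -0.03 ± 0.055 (SE, 95% interval -0.15 to 0.09, edgeR adjusted p = 0.844), and it was -0.12 without replicate 1 and 0.04 without replicate 3, in neither case called. Fasn and Srebf1 were thus the genes of the 10 with the largest standard errors, and the only ones whose pair differences covered more than 0.3 on the log2 scale.

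Scd1 had 165, 134 and 189 CPM in acLDL-low and 169.95, 139.9 and 195 CPM in acLDL-high cells. In each of the 3 pairs the acLDL-high library was the higher, by 0.05, 0.06 and 0.05, and Scd1 was the 1 gene of the 10 with the same direction throughout, against 40.4% of all genes tested. The populations still overlapped, since the replicates differed more than the pairs, and the log2 fold change of 0.05 ± 0.040 did not pass (SE, 95% interval -0.03 to 0.14, edgeR adjusted p = 0.522).

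Scd2, the most abundant transcript of the 10, had 3219, 2478 and 2960.2 CPM in acLDL-low and 3157, 2539 and 2779.95 CPM in acLDL-high cells. It alone made up 40.8% to 52.1% of the counts of the 10 genes. The means were 2886 ± 376 and 2825 ± 311 CPM (SD, n = 3), and the log2 fold change was -0.03 ± 0.048 (SE, 95% interval -0.13 to 0.08, edgeR adjusted p = 0.809). The ratio of Scd2 to Scd1 counts ranged from 14.3 to 19.5 over the libraries. On the log2 scale it was lower in acLDL-high cells in 3 of 3 pairs, by -0.07, -0.03 and -0.14, with a two-sided exact sign-flip permutation p of 0.25, the smallest that 3 pairs allow.

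Elovl6, which elongates palmitate to stearate, had 203, 234 and 224 CPM in acLDL-low and 217, 228 and 232 CPM in acLDL-high cells. Its pair differences were 0.10, -0.03 and 0.05, and its log2 fold change was 0.04 ± 0.043 (SE, 95% interval -0.06 to 0.13, edgeR adjusted p = 0.703).

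The polyunsaturated desaturases did not pass the test either. Fads1 had 136, 147 and 159 CPM in acLDL-low and 138, 137 and 160.0 CPM in acLDL-high cells, a log2 fold change of -0.03 ± 0.043 (SE, 95% interval -0.12 to 0.07, edgeR adjusted p = 0.809). Fads2 had 159, 239 and 172 CPM in acLDL-low and 182, 245 and 169 CPM in acLDL-high cells. Its log2 fold change of 0.07 ± 0.048 was the most positive of the 10 (SE, 95% interval -0.04 to 0.17, edgeR adjusted p = 0.489) and came largely from pair 1, in which the difference was 0.19, against 0.03 and -0.03 in the other pairs. The ratio of Fads2 to Fads1 counts was 1.06 to 1.80, and the pairs differed in its direction (two-sided exact sign-flip permutation p = 0.5, where 0.25 is the smallest possible).

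Acsl3 had 179, 153 and 170.1 CPM in acLDL-low and 176, 156 and 169 CPM in acLDL-high cells. Its pair differences were the smallest of the 10, at most 0.023 in size, and its log2 fold change was -0.0021 ± 0.040 (SE, 95% interval -0.09 to 0.08, edgeR adjusted p = 0.984).

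**Figure D2:**
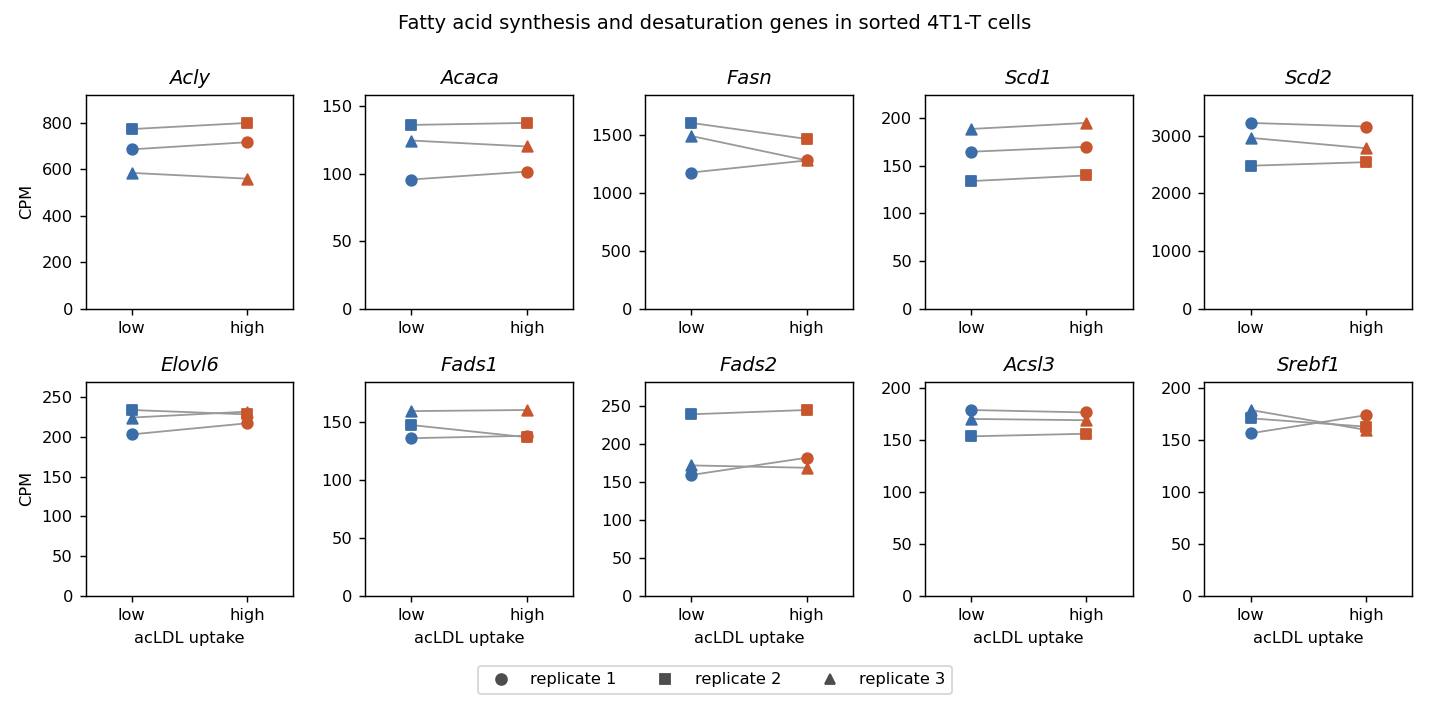
CPM of each of the 10 genes in acLDL-low (blue) and acLDL-high (orange) cells, with a grey line joining the libraries of each replicate and axes starting at 0. For most genes the libraries of a pair lie closer together than those of different replicates, and for Scd1 alone the acLDL-high library is the higher in all 3 pairs.

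**Figure D3:**
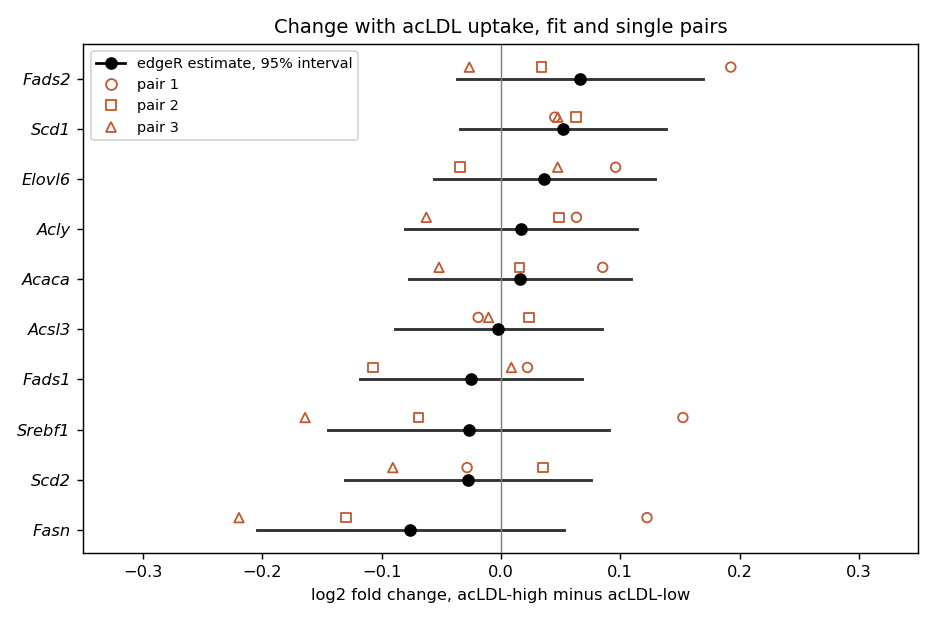
Log2 fold change of acLDL-high against acLDL-low cells from the edgeR fit (black points) with 95% intervals (lines), and the difference in log2 CPM within each pair (open symbols). Every interval includes 0, and the pairs of Fasn and Srebf1 lie on both sides of it.

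Set beside the whole transcriptome, the 10 genes had small log2 fold changes. Their median log2 fold change was 0.0069, against 0.0017 for all genes tested, with 5 of 10 above 0. The median size of the change, without its sign, was 0.028 for the 10 genes and 0.073 for all genes, and the median standard errors were 0.044 and 0.056. This comparison was not matched for abundance. By mean CPM the 10 genes ranked from 16 (Scd2) to 1995 (Acaca) among the 12572 genes. In 0 of 10 genes did the 3 acLDL-high libraries lie entirely above or below the 3 acLDL-low ones, against 2.86% of all genes. Summed over the 10 genes, the level was 5827 to 6314 CPM, and the pairs differed by 0.03, -0.01 and -0.10 on the log2 scale (two-sided exact sign-flip permutation p = 0.75, where 0.25 is the smallest possible).

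The pairs differed from each other in direction. In pair 1 the acLDL-high library was the higher for 8 of the 10 genes, in pair 2 for 6 and in pair 3 for 3, while over all genes tested the shares were 54.8%, 47.4% and 49.8%. The median difference of the 10 genes was 0.07, 0.02 and -0.04 in pairs 1, 2 and 3. These 3 values have no replicate of their own and were not tested.

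Differences between the occasions exceeded those between the sorted populations. Taking the mean log2 CPM of both populations for each replicate, the range over the 3 replicates had a median of 0.33 for the 10 genes and 0.45 for all genes tested. The largest difference within a pair had a median of 0.093 and 0.17. The first was the larger in 9 of 10 genes, all but Srebf1, and in 83.7% of all genes. Fads2 had the largest range, 0.51 on the log2 scale or 1.42-fold, followed by Scd1 (0.49), Acaca (0.47) and Acly (0.46). Scd2 (0.35), Fasn (0.32), Fads1 (0.22), Acsl3 (0.20) and Elovl6 (0.14) varied less, and Srebf1 had the smallest range, 0.035.

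Between occasions the 10 genes shifted in different directions. Replicate 2 had the highest CPM in both populations for 4 genes, Acly, Acaca, Fasn and Fads2, and the lowest in both for 3, Scd1, Scd2 and Acsl3. Over all genes tested these shares were 34.1% and 32.8%. The counts among the 10 genes are near these shares. As each occasion was sampled once per population, this is a description of these cultures with no test. The mitochondrially encoded share of the counts also differed, at 3.6% in both libraries of replicate 2 and 5.0% to 6.0% in the others, and its part in these differences was not tested.

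**Figure D4:**
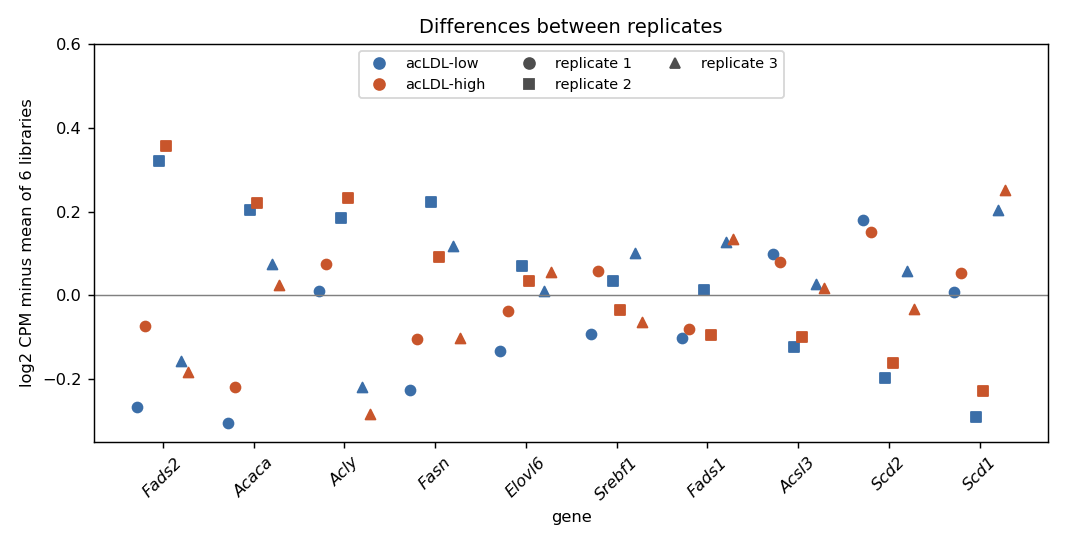
Log2 CPM of each gene minus its mean over the 6 libraries, with acLDL-low in blue, acLDL-high in orange and the marker shape giving the replicate. Genes are ordered from Fads2, highest in replicate 2 (squares), to Scd1, lowest in replicate 2, and libraries of the same replicate lie close together for most genes.

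The genes most like Fasn, Scd1 and Srebf1 across the 6 libraries were not among the 10. With 12572 genes compared, a nearest gene outside so short a list says little about the pathway. By the root mean square difference of centred log2 CPM, the nearest to Fasn was Mfsd2a (0.035), a transporter of lysophospholipids carrying polyunsaturated fatty acids. For Scd1 it was Aff4 (0.018), a subunit of the super elongation complex, and for Srebf1 it was Ehbp1l1 (0.031). Within the 10 genes, the pair most alike was Scd2 and Acsl3 (0.065). Acaca was the gene of the 10 nearest to Fasn (0.095), at rank 452 among all genes.

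Genes that feed or surround the pathway, in 9 lists, held 6 calls among 143 genes tested, or 4.2%, near the 4.75% of all genes. Over the 9 lists together 26 of the 143, or 18.2%, had an unadjusted p under 0.05, near the 19.4% of all genes. Of all 12572 genes tested 6356 had a positive log2 fold change. Of 13 genes that supply acetyl-CoA and NADPH, 1 was higher and 0 lower, 12 of 13 had a positive log2 fold change and the median was 0.10 against 0.0017 for all genes. An unadjusted p under 0.05 was found in 7 of them, against 19.4% of all genes, and 1 of the 7, the phosphogluconolactonase Pgls, had a negative log2 fold change (-0.12, edgeR adjusted p = 0.165). Idh1, the cytosolic isocitrate dehydrogenase that yields NADPH, had 236, 125 and 163 CPM in acLDL-low and 272, 134 and 185 CPM in acLDL-high cells. It rose by 0.16 ± 0.042 (log2 fold change, SE, edgeR adjusted p = 0.0431). The mitochondrial citrate carrier Slc25a1 and malic enzyme Me1 had log2 fold changes of 0.16 and 0.14 with edgeR adjusted p of 0.0709 and 0.0919, and were higher in 3 of 3 pairs without passing. Replicate 2 was the highest in both populations in 10 of these 13 genes.

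In the lists of other carboxylase, elongation and desaturase genes, 0 genes passed the test. Among other carboxylase and synthase genes, 0 of the 8 tested (of 11 listed) were called, with a median of -0.02, and the most abundant, Aacs and Mid1ip1, had log2 fold changes of -0.07 and -0.10. Mid1ip1 encodes a protein that promotes the polymerization of acetyl-CoA carboxylase. Among other elongation genes 0 of 10 tested (of 12) were called, 8 had a positive log2 fold change, and the median was 0.10. The reductases of the cycle, Tecr and Hsd17b12, had 0.05 and 0.08. Among other desaturase genes and genes of the cytochrome b5 system 0 of 7 tested (of 10) were called, with a median of 0.02. The most abundant, Cyb5b and Cyb5r3, had 0.03 and 0.09. These 3 lists had 0, 4 and 0 genes with an unadjusted p under 0.05, against 19.4% of all genes. The 4 were Elovl5, Elovl7, Hacd3 and Hacd4, with log2 fold changes of 0.11, 0.18, 0.12 and 0.39. Their edgeR adjusted p were 0.221, 0.0701, 0.222 and 0.121. DESeq2 with the block called 0 genes in each list.

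Acyl-CoA metabolism held a call in each direction. Of 14 tested genes (of 16), 1 was higher and 1 lower, with a median of 0.03, and 6 had an unadjusted p under 0.05. Acsl4, an acyl-CoA synthetase that prefers arachidonate, had 376, 290.5 and 533 CPM in acLDL-low and 454, 318 and 652 CPM in acLDL-high cells. It rose by 0.23 ± 0.046 (log2 fold change, SE, edgeR adjusted p = 0.0128), while the 95% interval of its relative Acsl3 ended at 0.08. Acot2, a mitochondrial acyl-CoA thioesterase, fell from 13.8, 6.93 and 12.6 CPM to 10.6, 5.23 and 10.2 CPM, a log2 fold change of -0.36 ± 0.074 (SE, edgeR adjusted p = 0.0154). Of its 50-base words 27.7% occur elsewhere, chiefly in Acot1, whose own mean level was 0.261 CPM (log2 fold change 1.26, edgeR adjusted p = 0.123). The acyl-CoA binding protein Dbi had 0.16 with an edgeR adjusted p of 0.0669. Slc27a1 of the same list went the other way, with -0.16 and an edgeR adjusted p of 0.0510, and was lower in every pair.

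The regulators of the pathway gave no call. Of 21 tested genes of SREBP and LXR control (of 22), 0 were called and 0 had an unadjusted p under 0.05, with 12 above 0 and a median of 0.0051, and DESeq2 also called 0. Srebf2, the SREBP that favours cholesterol genes, had a log2 fold change of 0.10 (edgeR adjusted p = 0.337). The protease Mbtps1, which makes the first cut in SREBP, had 0.0052 and the SREBP anchor Insig1, itself a target of SREBP, -0.01 (edgeR adjusted p = 0.962 and 0.922).

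Downstream and parallel lipid pathways held 1 call each, again near the share of all genes called. In glycerolipid synthesis and lipid droplets 0 of 26 genes were higher and 1 was lower, with a median of -0.02. Choline kinase alpha (Chka), the first step of phosphatidylcholine synthesis from choline, fell from 122, 166 and 162 CPM to 105, 149 and 139 CPM, a log2 fold change of -0.20 ± 0.041 (SE, edgeR adjusted p = 0.0168). Among fatty acid oxidation genes and targets of the nuclear receptor PPAR 1 of 21 tested (of 28) was higher, 17 were above 0 and the median was 0.04. DESeq2 called a further gene of this list, Acadl, an acyl-CoA dehydrogenase (log2 fold change 0.15, edgeR adjusted p = 0.0558). Angptl4, a secreted inhibitor of lipoprotein lipase, rose at a low level from 2.22, 2.34 and 1.16 CPM to 4.02, 3.55 and 1.74 CPM, a log2 fold change of 0.69 ± 0.14 (SE, edgeR adjusted p = 0.0122). In cholesterol synthesis 1 of 23 genes was higher, 17 were above 0 and the median was 0.07. The called gene was Hsd17b7, a sterol reductase, at 0.18 ± 0.043 (log2 fold change, SE, edgeR adjusted p = 0.0345).

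The 6 genes called in these lists were also called by DESeq2, but each call was lost without replicate 3. The edgeR adjusted p was then 0.216 for Idh1, 0.134 for Acsl4, 0.126 for Acot2, 0.160 for Chka, 0.0834 for Angptl4 and 0.103 for Hsd17b7. Without replicate 1, Idh1 (0.133), Angptl4 (0.0726) and Hsd17b7 (0.0630) were lost as well, as was Hsd17b7 without replicate 2 (0.104). With library totals in place of TMM, Idh1 (0.052) and Hsd17b7 (0.056) were not called. Directions were kept in 3 of 3 pairs for all 6, against 40.4% of all genes tested. These genes were selected by a test on the same pairs, so this adds no support. All 6 were also lost in the fit without the replicate block, where the edgeR adjusted p was 1.

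**Figure D5:**
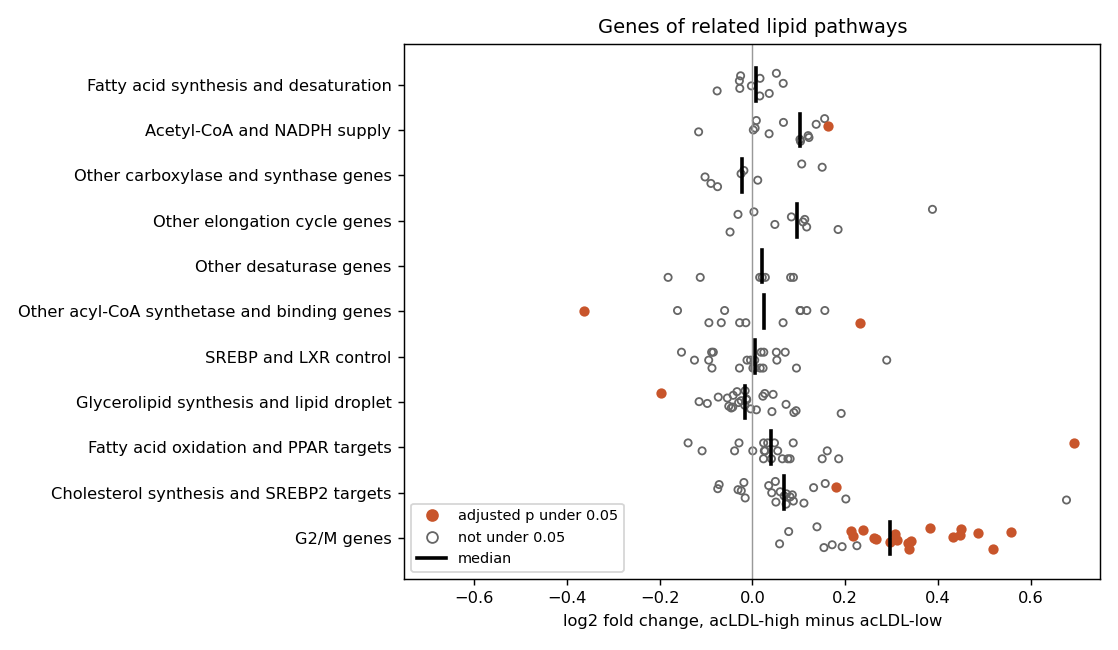
Log2 fold change of acLDL-high against acLDL-low cells for the 10 genes of fatty acid synthesis and desaturation and for genes of related lists, with filled points for an adjusted p under 0.05 and a bar at each median. The axis ends at 0.75 on either side, which leaves out 1 gene, Acot1 at 1.26. Filled are 6 of the 143 genes of related lipid lists, spread over 5 lists, and 18 of 25 G2/M genes. Of all genes tested 4.75% were called.

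Genes of the cell cycle and of epithelial identity did pass the test between the sorted populations. Of 25 genes of the G2 and M phases 18 were higher and 0 lower, with a median log2 fold change of 0.30. Among all genes tested 3.43% were higher and 1.32% lower. This list and that of the epithelial markers were chosen with earlier results of these data known. Ube2c, the ubiquitin-conjugating enzyme of the anaphase-promoting complex, rose by 0.56, and the mitotic kinase Cdk1 by 0.43. Of the 9 epithelial markers 3 rose, Cldn4 by 0.53, Cldn7 by 0.30 and Esrp1 by 0.22, of which Cldn7 and Esrp1 were not called without replicate 3 (edgeR adjusted p = 0.0659 and 0.280), nor Esrp1 without replicate 2 (0.174), with library totals (0.0775) or with at least 10 counts in every library (0.05005). Over all genes 431 were higher and 166 lower, 72.2% higher, and with library totals in place of TMM 357 were higher and 249 lower, 58.9% higher.

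Markers of other cell types were mixed, with many at 0 and a few expressed, among them Pdgfra, Cd14 and Cd68. Of 15 macrophage markers 7 had no count in any library (Adgre1, Msr1, Marco, C1qa, C1qb, C1qc and Cd163), Ptprc had 43 counts over all 6 libraries, and the summed level was 19.2 to 21.6 CPM in acLDL-low and 20.1 to 24.4 CPM in acLDL-high cells. Cd14 rose by 0.32 (edgeR adjusted p = 0.0246, 0.0558 with DESeq2, 0.175 without replicate 3 and 0.0714 without replicate 1), while Cd68, at a mean of 8.17 CPM against 10.7 for Cd14, had a log2 fold change of -0.28 and was lower in 2 of 3 pairs (edgeR adjusted p = 0.201). Of 12 endothelial markers 4 had no count and the sum was 6.36 to 8.11 CPM, with Egfl7 and Tie1 the most abundant (log2 fold changes of 0.01 and 0.10). Esam and Pecam1, at means of 0.377 and 0.289 CPM, had log2 fold changes of -0.90 and -0.48 and were lower in 3 of 3 pairs (edgeR adjusted p = 0.167 and 0.515). Cdh5, at a mean of 0.183 CPM, had 0.18 and was higher in 2 of 3 pairs (edgeR adjusted p = 0.887). Of the 5 endothelial markers tested 3 had a positive log2 fold change and 0 were called. Esam was the only one of them with an unadjusted p under 0.05. Of 8 fibroblast markers 2 had no count and the sum was 28.4 to 43.7 CPM, nearly all of it Pdgfra (0.08). Of 9 adipocyte markers 4 had no count, 0 passed the filter and the sum was 0.086 to 0.33 CPM, with Lpl at 31 and Cidea at 24 counts in all. The part of these markers in the values of the 10 genes was not tested.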

How the data were processed

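Paired-end reads were aligned by the authors to mm10 with STAR (2.5.2a). The authors counted them per gene with featureCounts (1.4.3-p1) and deposited raw counts for 53379 gene IDs. A second deposited table holds the authors' own DESeq2 (1.20.0) comparison of protein-coding genes; only its gene IDs and symbols were used. Its other columns were left out: a normalized signal, which the authors made by dividing counts by size factors and averaging, and their fold changes, test statistic and p-values.

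Counts were tested with edgeR (4.0.16, R 4.3.3) after filterByExpr and TMM scaling, by the quasi-likelihood test blocked on replicate number, and adjusted by Benjamini-Hochberg over 12572 genes, threshold 0.05. The block follows the study's methods, and the libraries pair by occasion: the correlations of same-numbered libraries are 0.795 to 0.846 and those of other pairs -0.557 to -0.088. Standard errors were derived as the size of the log2 change over the root of the F statistic. Pair differences are log2 CPM with a prior count of 2. The scripts were tested on simulated data. With a log2 change of 0.3 put into 200 genes, 140 were recovered and 15 calls were false. With a change of 1, 186 were recovered and 16 calls were false. The 10 genes and all lists were chosen with earlier results of these data known. Genes named beyond the 10 are, per list, those called (at most 6 of smallest p, not all described) or, where none was, the 2 with highest mean CPM, and the genes nearest to Fasn, Scd1 and Srebf1. Insig1, Slc25a1, Me1, Acot1, Dbi, Pgls, Acadl, Cd68, Esam, Pecam1 and markers at or near 0 were chosen after their values were seen. So were Slc27a1, Elovl5, Elovl7, Hacd3, Hacd4 and Cdh5. Positions are from GENCODE M21, in which 53274 of the IDs were found without regard to version. The alternatives were no block, DESeq2 size factors, library totals, DESeq2 (1.42.0), other filters, all genes, each replicate left out and an adjusted p under 0.01.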

Additional observations from a re-analysis of the deposited data

How the results depend on the processing

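Across 11 alternatives 0 of the 10 genes were called, and 95 of their 110 log2 fold changes kept their sign. The other 15 changed sign. The alternative with an adjusted p under 0.01 keeps the main fit, so its signs and its 0 calls among the 10 genes were fixed in advance. Acsl3 turned to 8.1e-05 without the replicate block, 0.00096 with DESeq2 size factors, 0.0015 with DESeq2, 0.0047 without a filter and 0.0081 with all genes. With library totals Acly was -0.0020, Acaca -0.0024, Mbtps1 -0.013 and Egfl7 -0.0077. Leaving out each replicate gave ranges of -0.0059 to 0.058 for Acly, -0.017 to 0.052 for Acaca, -0.061 to 0.0051 for Scd2, -0.048 to 0.014 for Fads1, -0.017 to 0.0075 for Acsl3 and -0.12 to 0.043 for Srebf1, and, among the other genes, -0.15 to 0.025 for Aacs, -0.014 to 0.017 for Mbtps1, -0.084 to 0.12 for Egfl7, -0.15 to 0.29 for Tie1, -0.26 to 0.47 for Col6a3 (a fibroblast marker) and -0.043 to 0.023 for Insig1. The causes were not tested.

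The count of all genes called did depend on the processing. Without the replicate block edgeR called 0 higher and 0 lower, with 45 of 12329 genes at an unadjusted p under 0.05. Without a filter 669 were higher and 263 lower, at an adjusted p under 0.01 171 and 28, and with DESeq2 103 were lower. Leaving out a replicate gave 112 to 602 higher and 14 to 267 lower, both lowest without replicate 3. A null result for the 10 genes is bounded by edgeR intervals from 3 pairs of 1 sub-clone, with variances moderated over all genes. It is not bounded by depth, and covers mRNA only.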
